A study of Mus musculus with 10 samples.

Results

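The data described here are the 5 wild-type (WT) hearts of a series of 10 mouse heart libraries, taken by the genotype label WT. Each heart came from a C57BL/6 mouse at postnatal day 14, and each library carries its own animal number and was run on 3 lanes. The other 5 libraries, from Lmna knockout hearts of the same strain and age, enter no comparison here. RNA was isolated from the heart with a miRNeasy kit and made into TruSeq libraries, so each library is a bulk mixture of all cells in the piece of tissue taken. In such a mixture, fewer cells of a type and less RNA per cell cannot be told apart. The hearts are called hearts 1 to 5 by the number in their labels, and values after ± are the SD over these 5 hearts. All values are the authors' read counts scaled to a common effective library size (CPM), for 14626 genes in the mouse build mm10.

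In the days after birth the mouse heart stops building muscle in the fetal way. Cardiac muscle cells leave the cell cycle, replace fetal isoforms of contractile proteins with adult ones, and turn from glucose and lactate to fatty acids as the main fuel. Many of these changes are exchanges between paralogs, related genes that code for versions of one protein, such as the cardiac myosin heavy chains Myh7 and Myh6. The level of a paralog against its partner in the same heart does not depend on how libraries are scaled. In a bulk mixture this ratio also includes reads from cells other than cardiac muscle. No other age was measured here, so how far an exchange has gone was not tested.

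The libraries held between 15259545 and 22146030 reads, so that 1 read was worth 0.0464 to 0.0672 CPM. Any 2 hearts differed by more than counting noise (chi-square per degree of freedom between 6.76 and 24.2), and between 13 and 60 of 8885 genes of at least 10 CPM differed more than 2-fold between them. Counting alone gave a coefficient of variation of 5.61% for the middle gene of 10 to 30 CPM and of 1.82% for the middle gene of 100 to 1000 CPM. Xist, the RNA of the inactive X chromosome, measured 439, 0.0464, 0.2003, 409.7 and 0.110 CPM in hearts 1 to 5. The Y-linked gene Ddx3y measured 0, 155, 164, 0 and 193 CPM, and Eif2s3y, Kdm5d and Uty were likewise at 0 in hearts 1 and 4 and present in hearts 2, 3 and 5. Hearts 1 and 4 thus had Xist without Y-linked transcripts, and the labels used here give no sex.

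The heart label matched the markers. Ttn, which codes for titin, the giant spring of the sarcomere, measured 77363, 78175, 77219.9, 67191 and 79952 CPM in hearts 1 to 5. Myh6, the adult alpha-myosin heavy chain, measured 44866, 44668, 47155, 42668 and 42646 CPM. Atp2a2, the calcium pump of the sarcoplasmic reticulum, measured 14840.4, 14792, 15529, 12651 and 14407 CPM. Heart 4 was the lowest for Ttn and Atp2a2, and hearts 4 and 5 were almost equal and lowest for Myh6. Tnnt2, cardiac troponin T, measured 4436, 4595, 4036, 3936 and 4328 CPM, with heart 2 the highest. Of the markers of other heart cells, the fibroblast collagen Col1a1 measured 482, 393, 528, 591 and 442 CPM, highest in heart 4 and lowest in heart 2. The endothelial adhesion molecule Pecam1 measured 285, 272, 282, 284 and 291 CPM and was nearly the same in every heart.

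Reads were concentrated in few genes. Of 14626 genes, 8885 (60.7%) had a mean of at least 10 CPM and held 98.0% of reads, 1730 had at least 100 CPM and held 72.1%, and 87 had at least 1000 CPM and held 33.8%. The 20 genes with the most reads took 23.3% ± 0.475 of all reads, and Ttn alone took 7.45%, from 6.87% in heart 4 to 7.69% in heart 5. After Ttn (75980.2 CPM), Myh6 (44400.4) and Atp2a2 (14444) came Malat1, an abundant nuclear noncoding RNA, with 13411 ± 1011 CPM. Then followed the thin-filament genes Actc1 (cardiac alpha-actin, 9773 CPM) and Tpm1 (tropomyosin, 7774 CPM), with the ventricular myosin light chain Myl2 (8707 CPM) between them. Pln, the inhibitor of the calcium pump, reached 7273 CPM and Mb, the oxygen store myoglobin, 6611 CPM. Of Pln exon bases 60.8%, and of Mb exon bases 37.96%, also lie in exons of genes on the other strand, and the use of strand in counting is not given in the sources used here.

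Mitochondrial and fuel genes filled much of the rest of the 20. The ATP synthase subunits Atp5b and Atp5a1 measured 6237 ± 157 and 5697 ± 197 CPM. Slc25a4, the muscle carrier that exchanges ADP and ATP across the inner mitochondrial membrane, measured 5484 ± 206 CPM. Fabp3, the fatty acid binding protein of heart muscle, measured 3471 ± 149.5 CPM. The calcium release channel Ryr2 (5533 CPM), the thick-filament gene Mybpc3 (4680.4), Tnnt2 (4266), the light chain Myl3 (4045) and the cardiac troponin I gene Tnni3 (3376) were also among the 20. The only one of the 20 that is not a cardiac muscle, mitochondrial or general nuclear gene was Col3a1, the fibrillar collagen of loose connective tissue, with 3166, 2552, 3270.0, 3307 and 2806 CPM in hearts 1 to 5, lowest in heart 2.

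**Figure D1:**
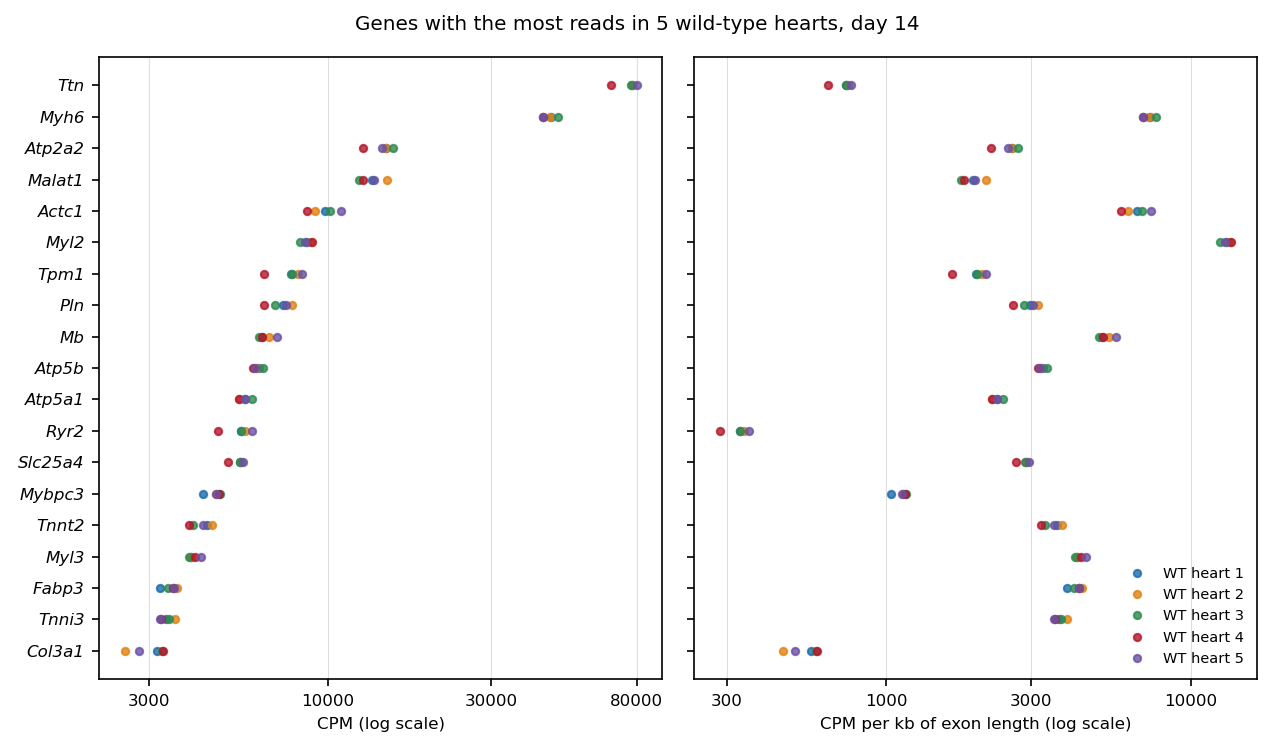
Levels of 19 of the 20 genes with the most reads, 1 point per WT heart. The left panel gives CPM and the right panel CPM per kb of exon length, both on log axes; Ttn leads by reads (75980 CPM) and Myl2 leads per kb (13152 CPM per kb).

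The order changed when reads were divided by length. Long transcripts collect more reads per molecule, so levels of different genes are compared here as CPM per kb of exon length, with lengths from GENCODE vM21 transcripts that have a RefSeq entry. Ttn, with 104254 bases of exon, had 729 ± 48.3 CPM per kb. Myl2, with 662 bases, had the highest level of the 20 at 13152 ± 433 CPM per kb. Myh6 followed with 7263 ± 306, Actc1 with 6634 ± 583, Mb with 5272 ± 266, Myl3 with 4317 ± 139 and Fabp3 with 4218 ± 182 CPM per kb. The gap between Myl3 and Fabp3 was smaller than the SD of either. Neighbours in this order were measured in the same hearts but not compared heart by heart, so their order was not tested. Tnni3 (3702 ± 156 CPM per kb) and Tnnt2 (3505 ± 226) were next, and their gap was larger than the SD of Tnni3 and smaller than that of Tnnt2. Ryr2, with 16814 bases of exon, had the lowest level of the 20, 329 ± 27.005 CPM per kb. Splice forms of one gene were summed in the deposited values, so the long and short forms of titin or troponin T are not resolved.

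The cell types of the heart were described by lists of markers. The 18 cardiomyocyte genes together took 19.2% of reads, from 18.4% to 19.5% in the single hearts. The 14 fibroblast genes took 0.764%, the 14 endothelial genes 0.527%, the 7 pericyte genes 0.184% and the 11 macrophage genes 0.0342%. Among fibroblast genes Col3a1 was followed by Sparc, a collagen-binding matrix protein (1024 ± 54.7 CPM), Col1a2 (747 ± 93.8) and the proteoglycan gene Dcn (729 ± 17.4). Among endothelial genes the fatty acid carrier Cd36, which cardiac muscle also expresses, was highest, with 2552 ± 219 of the 5371 CPM of the list. It was followed by Fabp4 (584 ± 34.7 CPM), the water channel Aqp1 (460.0 ± 65.7) and the VEGF receptor Kdr (320.2 ± 19.0005). Pericyte genes were led by the potassium channel subunit Abcc9, which cardiac muscle also expresses, with 827 ± 47.8 of the 1876 CPM of the list. The signalling regulator Rgs5 followed (618 ± 48.1 CPM). The most abundant macrophage genes were Mrc1 (91.5 ± 6.85 CPM), the receptor Csf1r (69.1 ± 3.82) and lysozyme, Lyz2 (48.8 ± 3.88). Of 9 lymphocyte genes only Ptprc, which all white blood cells carry, exceeded 10 CPM (14.4 ± 0.970), and the T cell gene Cd3e was at 0.194 ± 0.213 CPM.

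Genes of the atria were almost absent, while the label reads heart with no chamber named. Myl7, the atrial regulatory light chain, measured 0.0672, 0.418, 0.134, 0.510 and 0.329 CPM in hearts 1 to 5, where 3 reads were worth 0.139 to 0.202 CPM. Sln, sarcolipin, the atrial inhibitor of the calcium pump, measured 0, 0.0929, 0.0668, 0.153 and 0 CPM, and Bmp10, an atrial growth factor, was 0 in every heart. The atrial light chain Myl4 measured 2.49, 2.23, 2.67, 2.50 and 2.79 CPM. Sbk2 was at 0.601 ± 0.165 CPM and Dhrs9 at 0.121 ± 0.0377 CPM. In contrast the ventricular light chain Myl2 stood at 8727, 8926, 8297, 9012 and 8569.6 CPM, and Irx4, a ventricular transcription factor, at 34.6 ± 4.10 CPM. Nppa, the atrial natriuretic peptide, which is also made in fetal and stressed ventricles, measured 40.8, 24.9, 31.4, 71.2 and 57.04 CPM. Tbx5 (24.2 ± 2.43 CPM) and the potassium channels Kcna5 (41.3 ± 7.29) and Kcnj3 (23.2 ± 3.53) of the same list were present, so the list was not low as a whole. How the tissue was dissected is not given in the sources used here.

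Most markers of tissues next to the heart were at or near 0. Of 9 skeletal muscle genes, the calcium pump Atp2a1 measured 0.144 ± 0.0321 CPM, the fast light chain Mylpf 0.484 ± 0.0950 and the fast troponin T gene Tnnt3 0.674 ± 0.163. The embryonic and perinatal skeletal myosins Myh3 and Myh8 were at 0.0746 ± 0.111 and 0.0742 ± 0.0765 CPM. In the same list 3 genes exceeded 10 CPM, namely Ckm (2265 ± 92.6 CPM) and Acta1 (41.1 ± 26.3), which heart muscle also expresses, and Mybpc2 (23.7 ± 6.96). The fast skeletal light chain Myl1, outside the list and looked at after its values were seen, measured 20.7, 12.999, 15.6, 12.8 and 31.6 CPM, highest in heart 5. The liver albumin gene Alb was at 0.0936 ± 0.145 CPM, the fat cell hormone Adipoq and the airway secretory gene Scgb1a1 were 0 in every heart, and the epithelial gene Epcam was at 0.0514 ± 0.0749 CPM. Of the fat cell list, Pnpla2 (189.5 ± 10.1 CPM), a triglyceride lipase that muscle also expresses, and Cidea (31.4 ± 2.10), a lipid droplet gene, exceeded 10 CPM. Epicardial markers were low, with Wt1 at 8.25 ± 2.33 CPM, Msln at 7.06 ± 3.27 and Upk3b at 5.95 ± 3.12. Of 7 conduction system genes 2 exceeded 10 CPM, the highest at 14.6 CPM, and their median was 5.79 CPM. Among them Hcn4, the pacemaker channel, was at 2.78 ± 0.861 CPM. Mitochondrially encoded and globin mRNAs are not analysed here.

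The fetal myosin heavy chain was a small part of the pair. Myh7, the fetal beta-myosin heavy chain, measured 54.02, 68.5, 48.3, 64.96 and 43.4 CPM in hearts 1 to 5, against 42646 to 47155 CPM of Myh6. Of the Myh7 exon bases 17.9% also lie in exons on the other strand, those of Mhrt among them. The use of strand in counting is not known here. Per kb the Myh6 level was 858, 674, 1009, 678 and 1015 times the Myh7 level in hearts 1 to 5, with a geometric mean of 833. The Myh7 share of the pair was 0.122% (0.0984% to 0.148%). Hearts 2 and 4 had the highest Myh7 share and hearts 3 and 5 the lowest. The 2 genes lie side by side on the minus strand of chromosome 14, Myh6 at 54941921 to 54966607 and Myh7 at 54970688 to 54994549 (mm10, as deposited). Their coding sequences were 91.7% identical over 5802 aligned bases, and 22.5% of the 50-base windows of Myh6 exons occurred in Myh7, and how reads that match both were counted is not given in the sources used here. At the start of the coding sequence 14 of 60 bases differ, shown in capitals because only reads over such bases tell the 2 genes apart (5′ to 3′, GENCODE vM21).
Myh6: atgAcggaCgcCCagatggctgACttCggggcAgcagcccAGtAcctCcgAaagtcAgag
Myh7: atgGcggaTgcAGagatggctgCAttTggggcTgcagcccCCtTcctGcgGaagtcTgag

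Each myosin gene also holds a microRNA in an intron. The deposited row of the Mir208a precursor, inside Myh6, measured 1.81, 1.76, 1.54, 1.33 and 1.42 CPM in hearts 1 to 5. That of Mir208b, inside Myh7, was 0 in every heart, which with a limit of 3 reads allows up to 0.139 to 0.202 CPM per heart. These rows count reads over the precursor and do not measure the mature microRNAs, and Mir208a reads cannot be told apart from unspliced Myh6. The mature forms of the RefSeq table for GRCm38.p6, on the minus strand of chromosome 14 at 54949072 to 54949093 and 54975710 to 54975731, differ at 3 of 22 bases and share the seed, bases 2 to 8, in capitals.
mmu-miR-208a-3p: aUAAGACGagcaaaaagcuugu
mmu-miR-208b-3p: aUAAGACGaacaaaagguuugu

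Other fetal isoforms of the sarcomere were low as well. Tnni1, the slow skeletal troponin I of the fetal heart, measured 7.32, 10.03, 8.75, 8.97 and 3.29 CPM against 3239 to 3590 CPM of Tnni3, and heart 5 was the lowest for it. Per kb Tnni3 was 585 times Tnni1 (445 to 1224). Acta1, the skeletal alpha-actin that the fetal and stressed heart uses, measured 28.8, 11.2, 33.4, 51.9 and 80.4 CPM, lowest in heart 2 and highest in heart 5. Actc1 measured 9817, 9206, 10166, 8726 and 10947 CPM, and per kb exceeded Acta1 by 282 times (134 to 808). The biological CV, defined below, was 0.64 for Acta1 and 0.09 for Actc1. Coding sequences of the 2 actins were 86.3% identical, with no shared 50-base window, and 9 of the first 60 coding bases differ, in capitals.
Actc1: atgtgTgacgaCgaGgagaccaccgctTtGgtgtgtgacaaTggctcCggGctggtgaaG
Acta1: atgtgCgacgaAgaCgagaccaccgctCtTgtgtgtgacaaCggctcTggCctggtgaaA

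Isoforms of fast or slow skeletal muscle were low against their cardiac paralogs. Per kb, Tnnt2 exceeded slow troponin T, Tnnt1, by 229 times (196 to 259), and Tpm1 exceeded Tpm2 by 294 times (229 to 412), or by 489.6 times in reads not divided by length. Mybpc3 exceeded the fast skeletal Mybpc2 by 177 times (116 to 219), lowest in heart 5. Myl3, the ventricular essential light chain, exceeded its atrial paralog Myl4 by 2051 times (1885 to 2294). The sarcomeric alpha-actinin Actn2 exceeded the non-muscle Actn1 by 60.3 times, which other cells also express.

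Of 56 pairs of paralogs or partner genes, 51 had reads of both genes in every heart. The first-named gene, in most pairs the adult or cardiac form, was higher per kb in all 5 hearts in 45 pairs, the second in all 5 hearts in 5 pairs, and 1 pair was mixed. The mean difference exceeded 10-fold in 26 pairs and 100-fold in 14, and the median SD of the log2 ratio between hearts was 0.23. Ratios between genes depend on the lengths used: with coding length in place of exon length 19 of the 51 moved by more than 1.5-fold, and that value is given beside such a ratio where one is printed. An exact two-sided sign-flip permutation test of 5 ratios cannot go below 0.0625, the value reached by every pair with 1 direction, so no pair could pass 0.05 and the ratio of each heart is given instead. Pairs of which a member was at a few reads, such as Myl2 with Myl7 and Atp2a2 with Atp2a1, are described by their levels and not by a ratio. For 4 further pairs a partner gene is not analysed here, and 1 pair, Pln and Sln, had hearts without Sln reads.

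**Figure D2:**
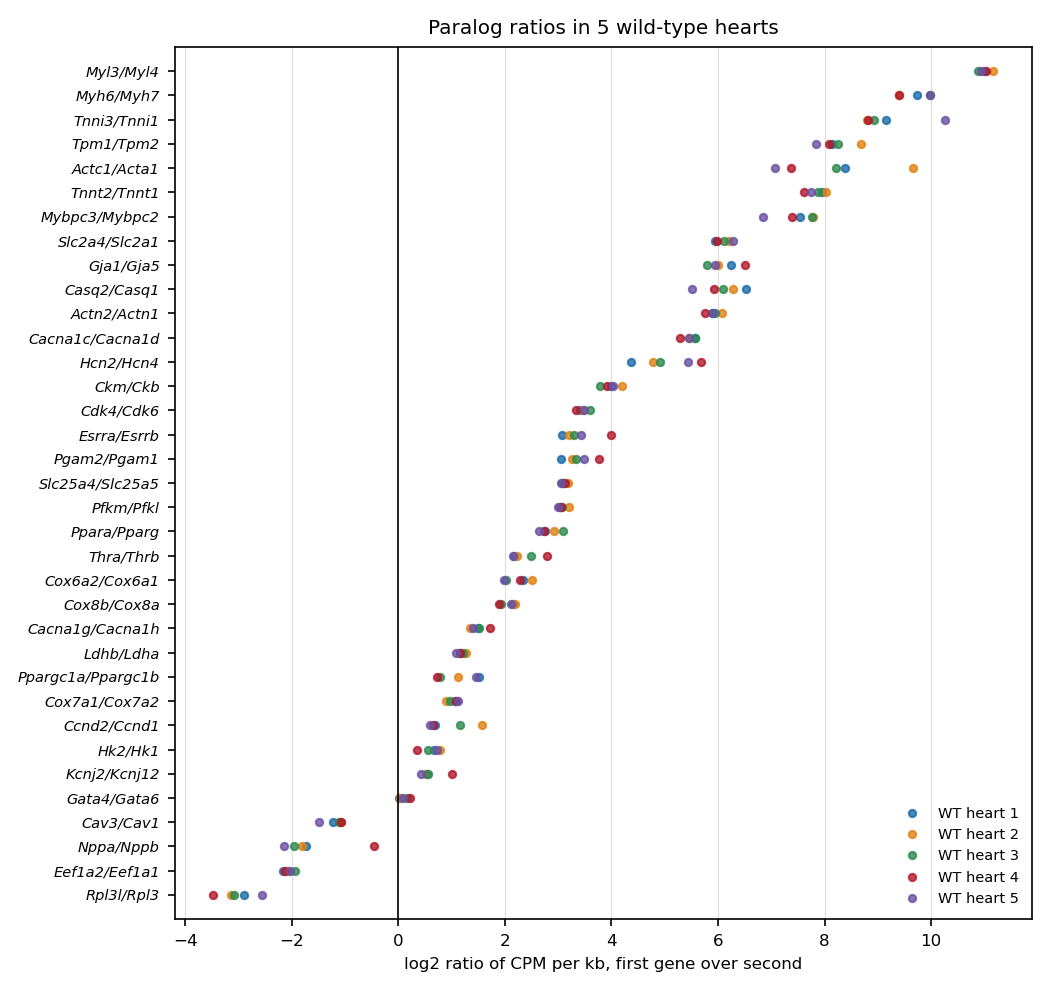
Log2 ratio of CPM per kb, first gene over second, for 35 of the 51 pairs with reads of both genes in every heart, 1 point per WT heart and a line at equal levels. In 31 of the pairs shown every heart lies right of the line and in 4 every heart lies left of it.

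Genes of calcium handling followed the cardiac forms. Besides Atp2a2 and Pln, the release channel Ryr2 measured 5579.8, 5737, 5577, 4779.7 and 5993 CPM, lowest in heart 4, and its relative Ryr3 was at 1.71 ± 0.413 CPM. The calcium store protein Casq2 exceeded its skeletal paralog Casq1 by 67.1 times per kb (45.7 to 91.9). Slc8a1, the sodium-calcium exchanger, was at 60.6 ± 3.77 CPM per kb. The pore of the L-type calcium channel, Cacna1c, exceeded its atrial and nodal relative Cacna1d by 44.1 times (38.9 to 47.7), and by 68.2 times per kb of coding length. The T-type channels, which fall in ventricular muscle after birth, were present, with Cacna1g at 53.9, 41.97, 58.3, 80.4 and 27.1 CPM and Cacna1h at 19.01, 16.6, 20.3, 24.5 and 10.2 CPM. Both were highest in heart 4 and lowest in heart 5, so their ratio, 2.82 (2.52 to 3.28), moved less than either gene.

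Other membrane channels were compared in the same way. Per kb, Hcn2 exceeded the pacemaker form Hcn4 by 32.8 times (20.8 to 51.04), or by 17.1 times in reads not divided by length. The inward rectifiers Kcnj2 and Kcnj12 had a ratio of 1.52 (1.34 to 2.01), which was 3.73 per kb of coding length. Gja1, the connexin of working muscle, exceeded Gja5, that of atria and conduction tissue, by 68.5 times (55.8 to 90.4). Kcnip2, a partner of the transient outward potassium channel that appears in the postnatal mouse ventricle, measured 126, 148, 157, 148 and 133 CPM. All 18 potassium channel genes of the list exceeded 10 CPM.

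Genes of oxidative metabolism were abundant. The 22 tricarboxylic acid (TCA) cycle genes took 1.98% of reads, 36 genes of respiratory complex I 1.22%, 35 genes of complexes III to V with cytochrome c 3.39%, and 28 genes of fatty acid uptake and oxidation 2.38%. The 23 glycolysis and glucose uptake genes took 1.18%. Median levels were 766 CPM per kb for complexes III to V, 387 for the TCA cycle, 309 for complex I, 243 for fatty acid oxidation and 113 for glycolysis. Fabp3, Cd36, the beta-oxidation subunits Hadhb (2453 ± 81.4 CPM) and Hadha (2147 ± 105), the lipoprotein lipase gene Lpl (1754 ± 249) and the acyl-CoA synthetase Acsl1 (1428 ± 32.2) led the fatty acid genes. None of the genes of the TCA cycle, complex I or complexes III to V was variable between hearts by the limit defined below, which 2.42% of all genes passed. Of 27 fatty acid genes of at least 10 CPM 3 passed it, among them Pdk4 and the uncoupling protein Ucp3 (48.8, 114, 70.3, 103 and 57.8 CPM).

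Muscle forms of the respiratory chain exceeded the general forms, less steeply than in the sarcomere. Cox6a2 exceeded Cox6a1 per kb by 4.69 times (3.97 to 5.73), Cox8b exceeded Cox8a by 4.16 times (3.70 to 4.55) and Cox7a1 exceeded Cox7a2 by 2.04 times (1.87 to 2.16). The general form made up 32.9% of the last pair. Per kb of coding length the Cox8b ratio was 2.68 and the Cox7a1 ratio 1.26, with Cox7a2 at 44.2% of its pair. The carrier Slc25a4 exceeded Slc25a5, the form of most other cells, by 8.61 times (8.28 to 9.15), and by 13.4 times per kb of coding length.

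Among genes of glucose use, the insulin-dependent carrier Slc2a4 exceeded the fetal carrier Slc2a1 by 68.8 times per kb (61.7 to 77.3). Hexokinase was mixed, with Hk2 only 1.54 times Hk1 (1.28 to 1.72). The muscle forms Pfkm and Pgam2 exceeded Pfkl and Pgam1 by 8.41 and 10.4 times, the latter by 4.94 times per kb of coding length. The lactate dehydrogenase of oxidative tissue, Ldhb, exceeded Ldha by 2.25 times (2.12 to 2.40). For glycogen phosphorylase, muscle Pygm and brain-type Pygb were level, at 263 ± 10.8 and 253 ± 12.2 CPM per kb, and heart 4 was the one heart with more Pygb. Their order rests on the exon lengths, since the log2 ratio of 0.06 became -0.38 per kb of coding length. The creatine kinase pair was muscle-like, with Ckm 15.8 times Ckb (13.8 to 18.4), or 29.4 times per kb of coding length. Pdk4, the kinase that blocks pyruvate entry into the TCA cycle in fasting, measured 600.1, 1373, 776, 868 and 909 CPM, highest in heart 2 and lowest in heart 1.

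In 5 pairs the second-named gene was higher in every heart. Rpl3, the general ribosomal protein, measured 335, 333, 356, 364 and 298 CPM and its striated muscle paralog Rpl3l 53.4, 44.5, 49.6, 38.9 and 59.7 CPM. Rpl3 thus exceeded Rpl3l by 8.18 times per kb (5.91 to 11.1), the lowest in heart 5 and the highest in heart 4. For the elongation factor that brings aminoacyl-tRNA to the ribosome, Eef1a1 exceeded the muscle and nerve form Eef1a2 by 4.19 times (3.84 to 4.46). Cav1, the caveolin of endothelium and other cells, exceeded muscle Cav3 by 2.29 times (2.11 to 2.80), and by 4.86 times per kb of coding length. Nppb, the B-type natriuretic peptide, exceeded Nppa by 3.08 times (1.38 to 4.43), and of the Nppa exon bases 61.5% also lie in an exon on the other strand.

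The fifth of these pairs is uncertain. Cpt1b, the muscle form of the enzyme that admits fatty acids to mitochondria, measured 2.15, 3.11, 2.67, 2.24 and 2.47 CPM, and its liver form Cpt1a 116, 138, 131, 144 and 114 CPM. Of the Cpt1b exon bases 94.8% also lie in exons of the same-strand gene model Gm44502, which spans Cpt1b and its neighbour Chkb, and Chkb was at 0.722 ± 0.367 CPM as well. How reads of shared exons were counted is not given in the sources used here, so the Cpt1b level cannot be read from these values.

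Growth genes of the fetus were at mixed levels. The RNA-binding protein Igf2bp1 was at 0.283 ± 0.124 CPM, the chromatin protein Hmga2 at 0.322 ± 0.187 and the imprinted Dlk1 at 0.624 ± 0.277. The imprinted genes Igf2r (646, 693, 723, 674 and 608 CPM) and Grb10 (361, 346, 368, 341 and 330.1 CPM), both restraints on growth signalling, were high and close between hearts. Igf2 itself measured 95.8 ± 10.4 CPM, with 68.5% of its exon bases shared with the same-strand model Gm49394, and the noncoding H19 measured 63.8, 98.8, 82.5, 76.1 and 66.9 CPM, highest in heart 2. In all 12 of 21 genes of the list exceeded 10 CPM and none was variable between hearts by the limit defined below, which 2.42% of all genes passed. Genes of DNA replication were low, led by Pcna, the sliding clamp of the polymerase (39.4 ± 3.18 CPM), and 9 of 31 exceeded 10 CPM.

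Mitotic genes were also low, with a median of 4.28 CPM against 5.64 CPM for the genes of DNA replication. Of 31 mitotic genes 4 exceeded 10 CPM. Mki67, which marks cycling cells, measured 26.003, 20.5, 36.9, 28.8 and 39.9 CPM, and the topoisomerase Top2a 18.9, 12.3, 24.6, 19.9 and 26.2 CPM. Both were lowest in heart 2 and highest in heart 5. The kinetochore gene Cenpf went the other way, with 66.6, 62.1, 51.3, 54.5 and 40.002 CPM, and the centromeric histone Cenpa measured 20.5 ± 2.04 CPM. The kinases Aurkb and Cdk1 were at 1.15 ± 0.389 and 5.12 ± 1.68 CPM. The cyclin partner Cdk4 exceeded Cdk6 by 10.996 times per kb of exon but by 2.11 times per kb of coding length. Ccnd2 exceeded Ccnd1 by 1.91 times (1.51 to 2.99), and by 3.30 times per kb of coding length. Of inhibitors of the cycle, Cdkn1b was at 62.1 ± 2.05 CPM, Cdkn1c at 26.4 ± 2.11 and Cdkn1a at 11.8 ± 3.39, while Ccng1, a p53 target, was at 950.0 ± 110.3 CPM.

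Transcription factors of the heart were at lower levels than its structural genes. Mef2a, the most abundant MEF2 factor, measured 376 ± 13.1 CPM and Mef2c 126, 123, 122, 123 and 127 CPM, which was among the genes without spread beyond counting error. Tbx20 (295 ± 14.8 CPM) was the most abundant T-box factor of the list, and Gata4 and Gata6 were nearly level per kb, with a ratio of 1.07 (1.01 to 1.17), which was 1.503 per kb of coding length. Nkx2-5 stood at 33.8 ± 3.86 CPM. For the thyroid hormone receptors, which drive the postnatal exchange of myosins, Thra exceeded Thrb by 5.16 times (4.44 to 6.91), and by 2.59 times per kb of coding length. Of the regulators of mitochondrial and fatty acid genes, Ppara exceeded Pparg by 7.12 times, Esrra exceeded Esrrb by 10.5 times and Ppargc1a exceeded Ppargc1b by 2.17 times (1.65 to 2.84). Per kb of coding length these 3 ratios were 11.3, 5.501 and 4.86. Ppargc1a itself measured 268, 228, 209, 162 and 249.6 CPM, lowest in heart 4.

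Collagens led the matrix genes in reads, and matrix protein was not measured. The 16 collagen genes took 1.001% of reads, lowest in heart 2 (0.860% to 1.12%). After Col3a1 came the basement membrane chains Col4a1 (2418 ± 194 CPM) and Col4a2 (1337 ± 80.3), then Col1a2 and Col1a1. Fbn1, fibrillin, measured 665 ± 38.4 CPM and the elastin gene Eln 214 ± 19.3. Tenascin C, Tnc, was at 18.7 ± 1.78 CPM and the protease inhibitor Timp1 at 3.05 ± 0.364. Of 17 matrix genes of at least 10 CPM 2 were variable by the limit defined below, which 2.42% of all genes passed. They were thrombospondin, Thbs1 (56.6, 25.1, 33.9, 20.1 and 50.6 CPM), and Timp3 (257, 241, 212, 149 and 271 CPM).

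The spread between hearts was small for most genes. Over the 8885 genes of at least 10 CPM the median coefficient of variation (CV, SD over mean) was 6.89%, of which counting alone gives 3.84%. A biological CV was estimated by taking the counting variance from the variance between hearts, and its median was 5.55%. For 1169 genes no variance was left after this step. A biological CV above 0.2 was used as the limit for a variable gene, and 215 of 8885 genes (2.42%) passed it, 27 of them above 0.5. Just below the limit lay Hist1h1c, Ttc27 and Slc25a37 (biological CV 0.1995 to 0.1999), and just above it Apip and Synpo2 (0.2003 to 0.2008). None of the 87 genes of at least 1000 CPM and none of the 20 with the most reads was variable. The tagwise dispersion of edgeR, which draws genes towards a common value, put 93 genes above the same limit, all of them among the 215. By that estimate the median biological CV was 8.13%. With 1 heart left out, the median of 5.55% became 4.69% to 5.86%.

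The 10 genes of at least 50 CPM with the lowest CV had no spread beyond counting error, so their order carries no information. Eif4h, a translation initiation factor, measured 156, 156, 156, 156 and 156 CPM, a CV of 0.0902%. Cnot2, of the mRNA deadenylation complex, had a CV of 0.380%, the histone demethylase Kdm1a one of 0.564% and Ppil2 one of 0.567%. Rbpj, the DNA-binding partner of Notch, Raly, Ubn1, Akap13, Ncoa2 and the proteasome subunit Psmc2 completed the 10, with CVs up to 1.0001%. All 10 lie below the CV that counting alone gives at their level, which was 1.92% for Eif4h.

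**Figure D3:**
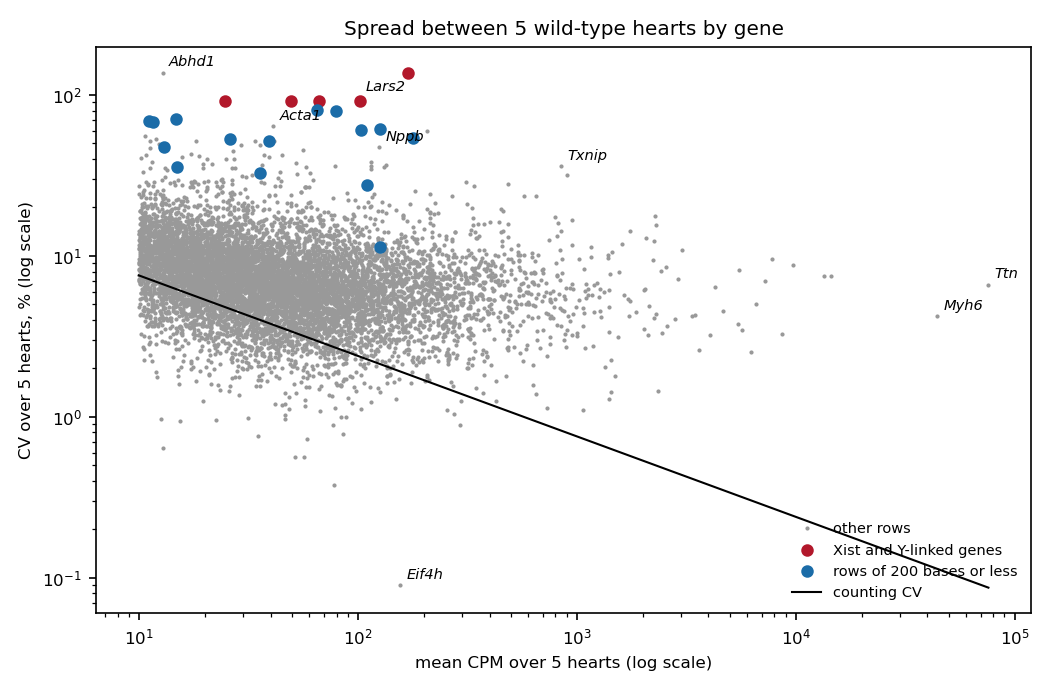
CV over the 5 WT hearts against mean CPM, both on log axes, for the 8885 genes of at least 10 CPM; the line is the CV that counting alone gives. Xist and 4 Y-linked genes (red) and 14 of the 15 rows of 200 bases or less (blue) lie above most other rows (grey).

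Short RNAs took up a large part of the upper end. Of 15 rows of 200 bases or less with at least 10 CPM, 14 were variable, against 201 of 8870 other rows. Rnu12, a small nuclear RNA of the minor spliceosome, measured 31.6, 179, 17.8, 83.5 and 86.9 CPM and Rnu11, its partner, 24.5, 147, 15.4, 69.3 and 69.2 CPM. Snord15b, a small nucleolar RNA (snoRNA) that guides modification of ribosomal RNA, measured 112, 320.0, 67.6, 194 and 201 CPM. In all 3, heart 2 was the highest, heart 3 the lowest and heart 1 the next lowest, and hearts 4 and 5 lay close together. The same order held for Snord22 (79.3, 243, 35.5, 139 and 137 CPM) and Snora81 (57.9, 196, 34.4, 112 and 116 CPM), and Snora44, Snora7a and Snora70 also had heart 2 highest and heart 3 lowest. The median log2 deviation of the 15 rows from their means was -0.48, 1.03, -1.21, 0.36 and 0.36 in hearts 1 to 5. Several snoRNA rows lie wholly inside annotated exons of some transcript of a host gene, Snord15b in Rps3, Snora81 in Eif4a2 and Snora7a in Rpl32. The exons used here for the lengths of Rps3 and Rpl32 share no same-strand bases with another gene. The overlap thus does not show that these snoRNAs lie in the exons of the host mRNA. The host genes varied far less. Rpl32 measured 174, 191, 168, 184 and 186 CPM, with the same hearts highest and lowest, and Rps3 275, 268, 277, 277 and 261 CPM, with heart 3 the highest.

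The other genes with the highest biological CV were of several kinds. Abhd1, listed first, measured 3.90, 6.17, 5.28, 44.6 and 4.55 CPM, high in heart 4 alone, and 86.5% of its exon bases also lie in Preb on the other strand, which measured 29.4, 29.4, 36.3, 33.9 and 33.9 CPM. Lars2, the mitochondrial leucyl-tRNA synthetase, measured 39.5, 29.2, 151, 37.5 and 253 CPM, high in hearts 3 and 5. Erdr1 measured 25.3, 59.2, 29.7, 7.60 and 3.62 CPM, highest in heart 2 and lowest in heart 5. Xist and the 4 Y-linked genes followed the split of hearts given above. Their X-linked relatives, looked at after these values were seen, were higher in hearts 1 and 4. Kdm6a measured 79.2, 48.1, 45.7, 84.4 and 43.8 CPM and Eif2s3x 278, 168, 177, 264 and 185 CPM. With Acta1 and the short RNA rows Rnu11, Rnu12, Snora44, Snora7a, Snora70 and Snord22, these make up the 15 rows with the highest biological CV.

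Further protein-coding genes with a high spread were picked after their values were seen. Nppb measured 123, 79.02, 109.9, 88.8 and 228 CPM, highest in heart 5. Angptl4, a fasting-induced inhibitor of lipoprotein lipase, measured 15.9, 56.2, 38.7, 60.6 and 21.97 CPM, high in hearts 2 and 4 and low in hearts 1 and 5. Scn4b, a sodium channel subunit, measured 49.6, 25.9, 43.5, 16.6 and 72.1 CPM and the complement gene C3 40.2, 40.8, 23.4, 10.2 and 55.8 CPM. Both were lowest in heart 4 and highest in heart 5. Sox4 went the other way, with 25.1, 35.7, 31.7, 64.96 and 20.99 CPM, and 54.6% of its exon bases lie in an exon on the other strand.

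Hearts 4 and 5 stood apart most often. Without the short RNA rows and the sex-linked genes, 196 genes were variable, and the heart farthest from the median was heart 4 in 94 of them, heart 5 in 64, and hearts 1, 2 and 3 in 11, 17 and 10. Heart 4 was the lowest heart for 88 of the 196 genes and heart 5 the highest for 77. Leaving out heart 4 left 154 variable genes over all rows, and leaving out heart 5 left 174.

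**Figure D4:**
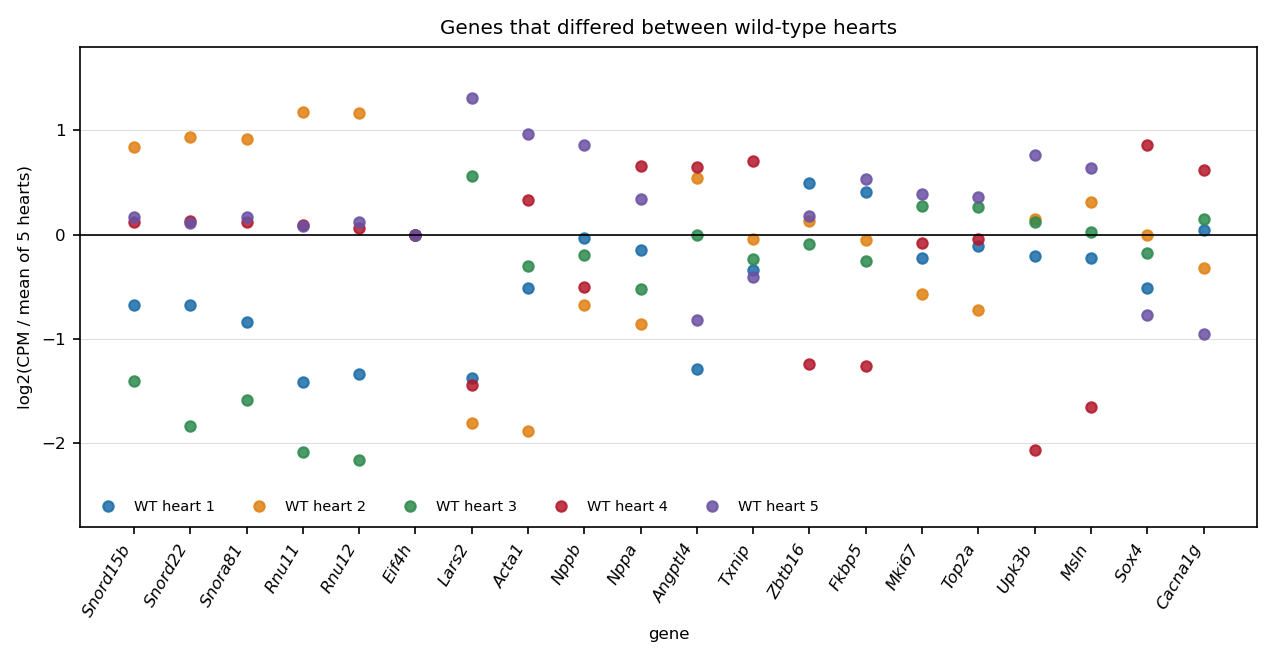
Log2 of CPM over the mean of the 5 WT hearts for 20 genes, 1 point per heart; Eif4h is shown as a gene without spread. Small RNA rows on the left share the order of hearts, with heart 2 highest and heart 3 lowest, and heart 4 is lowest for Zbtb16, Fkbp5, Upk3b and Msln.

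Gene lists were compared between hearts by the median log2 deviation of their members of at least 1 CPM from each gene's mean. Leaving aside the short RNA rows, the sex-linked genes and their X-linked relatives, over 38 lists with a member of at least 1 CPM the median range from the lowest to the highest heart was 0.18, and 5 lists exceeded 0.5. The endothelial list was the steadiest, with a range of 0.04, followed by fatty acid oxidation (0.06) and the cytosolic ribosome (0.06). A flat median does not mean that every member was steady, as the 3 variable fatty acid genes show. Of the 38 the epicardial list ranged most, by 1.06, with -0.03, 0.19, -0.03, -0.47 and 0.59 in hearts 1 to 5. Its members Msln (6.05, 8.77, 7.21, 2.24 and 11.01 CPM) and Upk3b (5.17, 6.59, 6.48, 1.43 and 10.1 CPM), genes of the surface mesothelium, were lowest in heart 4 and highest in heart 5. Of its 7 members only Tbx18, at 11.4 ± 1.69 CPM, exceeded 10 CPM.

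The mitotic list ranged by 0.81, with -0.15, -0.50, 0.31, 0.01 and 0.23 in hearts 1 to 5, lowest in heart 2. Erythroid genes were lowest in heart 4 (0.13, 0.10, -0.07, -0.44 and 0.24), and Alas2, the haem enzyme of red cell precursors, measured 96.2, 97.3, 81.7, 60.9 and 115 CPM. The list of glucocorticoid and fasting genes, which these hormones and states raise in many tissues, had a range of 0.59 and was lowest in heart 4, with 0.06, 0.07, -0.06, -0.37 and 0.22. In it 8 of 17 genes of at least 10 CPM were variable, against 2.42% of all genes. Its members were chosen with earlier results of these data known, so this count is no test of the list. Fkbp5 (20.96, 15.3, 13.2, 6.58 and 22.9 CPM) and Zbtb16 (162, 126, 108, 48.7 and 130.4 CPM), both raised by glucocorticoids, were lowest in heart 4. Txnip, an inhibitor of glucose uptake, measured 671, 826, 722, 1382 and 641 CPM and was highest there, and Pdk4 was highest in heart 2, so the members did not move as 1 group. The liver list, the last above 0.5, rested on 1 gene, Ahsg, at 2.42 ± 0.686 CPM. Without heart 4, 3 lists exceeded 0.5.

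**Figure D5:**
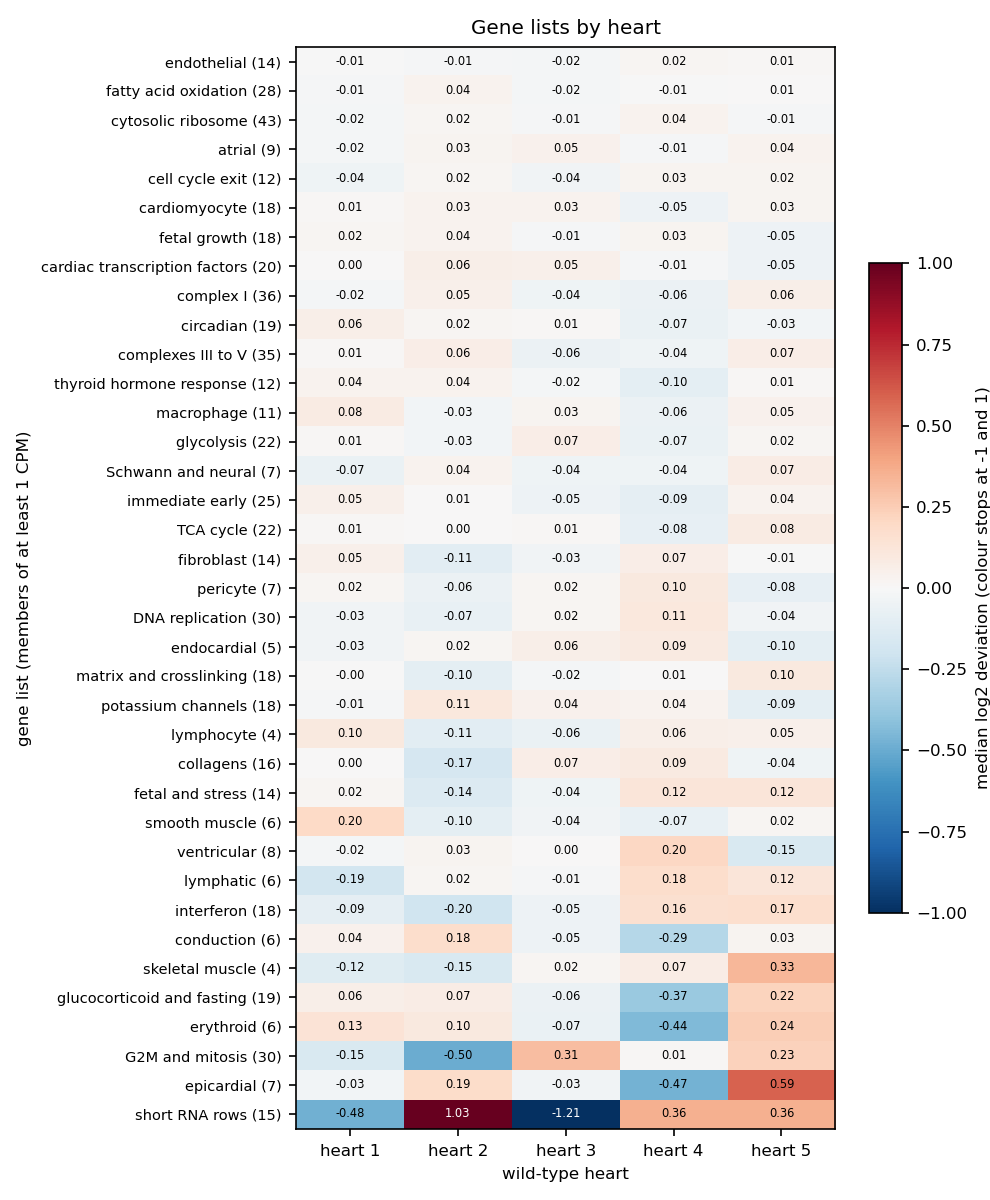
Median log2 deviation from the mean of the 5 WT hearts for each list with at least 3 members of 1 CPM or more, ordered by range, with the number of such members in brackets, and the short RNA rows at the bottom for comparison. Most of the lists stay within 0.2 of their mean, and heart 4 and heart 5 differ most for epicardial genes (-0.47 and 0.59).

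Stress genes differed between single hearts within 1 genotype. The gene lists were chosen with earlier results of these data known, so an excess of variable members over all genes was not tested. In the list of fetal and stress genes 6 of 12 members of at least 10 CPM were variable, against 2.42% of all genes. They were Acta1, Nppa, Nppb, Mybpc2, Ankrd1 and Xirp2, and the natriuretic peptides, Acta1 and Ankrd1 are known to rise when the heart is loaded. Ankrd1 measured 321, 460.3, 447, 695 and 494 CPM, Xirp2 699.7, 589, 609.8, 465 and 879.8 CPM and Mybpc2 20.02, 18.7, 19.4, 24.8 and 35.3 CPM. Heart 5 was the highest for Acta1 and Nppb, and heart 4 for Nppa, and Nppb was second lowest in heart 4, so no heart was high for all. Immediate early genes, which rise within minutes of handling, had a list range of 0.15, with Fos at 6.11, 5.06, 6.74, 8.92 and 5.59 CPM and Jun at 79.4, 76.7, 65.4, 59.8 and 54.1 CPM. Of 16 immediate early genes of at least 10 CPM 3 were variable, against 2.42% of all genes. They were Nr4a1 (15.99, 15.9, 15.8, 14.7 and 26.1 CPM), high in heart 5, and Cyr61 (25.3, 24.9, 25.9, 46.5 and 25.97 CPM) and Rrad (119.9, 136, 133, 189 and 119 CPM), both high in heart 4. Clock genes had a list range of 0.12 with 1 of 17 variable, and Dbp measured 15.7, 18.7, 18.03, 24.1 and 16.7 CPM.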

How the data were processed

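RNA of 5 WT hearts was measured by sequencing of TruSeq libraries. The submitters' processing notes name TopHat2, Cufflinks, edgeR and mm10. Not given in the sources used here are tool versions, the read counter, use of strand and filters. By its sheet name, the deposited signal is CPM of the effective library size. Whole reads were recovered for 100% of values within 0.01 read, giving 15259545 to 22146030 reads per library, and effective sizes were 0.962 to 1.02 times these totals. The authors' table has 14647 rows, of which 21 with a gene name turned into a date (0.153% to 0.159% of reads) were left out. The deposited table of the authors' own comparison was used for gene positions and row length classes only, and its level, log2, p-value and score columns were not used.

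Levels between genes are CPM per kb of exon length (14501 genes matched, GENCODE vM21). Ratios are per heart, with no pseudocount. The biological CV is the square root of the variance of CPM less the counting variance, over the mean, for genes of at least 10 CPM with a limit of 0.2. In simulated reads of the 5 hearts over 8885 genes, 96% of 200 genes made with a CV of 0.5 passed this limit and 0% of the others. The others were made with a CV far below the limit. Their 0% was thus set by the simulation and gives no rate of false calls for the real genes. The 96% holds for a CV of 0.5, which only 27 of the 215 variable genes exceeded. It gives no rate of detection for genes near the limit. List deviations are medians of log2(CPM + 0.5). Members of pairs and lists, and the rule for named genes (the 20 with the most reads, pair and list members, the 15 most and 10 least variable), were chosen with earlier results of these data known. Alternatives were other scalings, filters, pseudocounts, lengths and spread estimates, and leaving out each heart. Libraries were taken as separate animals, by the animal number in the labels, and the spread includes the preparation of each sample. Values of some members are not reported here. The 5 knockout columns of the same table were not used. Python 3.11.15, pandas 2.3.3, R 4.3.3 and edgeR 4.0.16 were used.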

Additional observations from a re-analysis of the deposited data

Results flagged for a closer look

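Of 298 values, pair ratios and list deviations examined over the 5 hearts, 22 had 1 heart far from the other 4 (a gap to the nearest heart above 0.71 of the whole range). For unselected values chance flags about 1 in 20 groups. The genes examined were those named above, some of them picked for their high or low spread. The rate is therefore no baseline for the 22, and an excess over it was not tested. Heart 4 was the distant heart in 10 of the 22 and heart 5 in 7.

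Heart 4 was low for Ttn (67191 CPM, others 77220 to 79952), Slc25a4 (5128 CPM, others 5525 to 5662), Slc8a1 (1004 CPM, others 1133 to 1176) and Hk2 (285 CPM, others 339 to 352). It was high for Abhd1 (44.6 CPM, others 3.90 to 6.17), Txnip (1382 CPM, others 641 to 826), Rrad (189 CPM, others 119 to 136) and Cyr61 (46.5 CPM, others 24.9 to 25.97). The log2 ratio per kb of Nppa to Nppb was -0.46 in heart 4 against -2.15 to -1.74 in the others, and that of Kcnj2 to Kcnj12 was 1.004 against 0.42 to 0.56.

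Heart 5 was low for Cav3 (83.7 CPM, others 96.2 to 98.6), Cacna1c (379 CPM, others 418 to 434) and the T-box factor Tbx5 (20.001 CPM, others 24.3 to 25.9). It was high for the epicardial factor Wt1 (12.3 CPM, others 6.59 to 7.90), the skeletal sodium channel Scn4a (22.6 CPM, others 15.7 to 16.4) and Nr4a1 (26.1 CPM, others 14.7 to 15.99). The log2 ratio of Tnni3 to Tnni1 was 10.26 in heart 5 against 8.80 to 9.16.

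In other hearts, heart 1 was low for Mybpc3 (4314 CPM, others 4713 to 4844) and Igf2bp1 (0.0672 CPM, the value of 1 read, others 0.306 to 0.384). Heart 2 was low for Actn1 (29.2 CPM, others 35.9 to 37.9). Heart 3 was high for Psmc2 (85.7 CPM, others 83.5 to 84.1) and Myh3 (0.267 CPM, others 0 to 0.0548). Psmc2 had no spread beyond counting error, as given above, and Myh3 rests on a few reads. Neither value is therefore read as a difference between hearts.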

How the results depend on the processing

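No paired analysis was possible because a single group was described and no contrast between groups was made. The number of genes of at least 10 CPM (8885) and the share of reads of the 20 genes with the most reads (23.3%) stayed close under every setting tried, from 8873 to 8896 and from 23.2% to 23.5% when 1 heart was left out. The count of variable genes depended on the filter and on the estimate. It was 215 of 8885 as reported, 874 of 12781 at a mean of at least 1 CPM, 1667 of 14611 with no filter, 57 of 3566 at a mean of at least 50 CPM and 93 of 8885 by edgeR's tagwise dispersion, which draws genes together. Leaving out 1 heart gave 154 to 291, the lowest without heart 4, and the other scalings and log scales 213 to 245. An alternative added after seeing the data, without rows of 200 bases or less and sex-linked genes, gave 196. The lists with a log2 range above 0.5 were 5, and 3 to 6 with 1 heart left out, the 3 without heart 4. Of the 51 pair ratios the mixed one, Pygm to Pygb, changed sign, from a log2 ratio of 0.06 to -0.39 without length correction and to -0.38 with coding length, and no other did under any setting tried. The ratios moved by more than the SD between hearts in 10 pairs with 0.5 added to each CPM and in 37 without length correction. With coding length from the annotation, an alternative added after seeing the data, 34 moved. None moved when 1 heart was left out. Leaving out 1 of 5 values cannot shift their mean by their SD, so that result was fixed in advance and is no check. Pairs over 10-fold were 26, and 25 with coding length or without length correction. Coding length from a protein table was not run. Plain library totals moved all genes by a median of -0.03 on the log2 scale. Low genes rest on fewer reads, and counting alone gave a CV of 5.61% for the middle gene of 10 to 30 CPM.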

Other observations

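Gene groups not described above were at mixed levels. Of 20 interferon-response genes 8 exceeded 10 CPM, among them the antiviral Rsad2 (36.6, 31.99, 32.9, 37.6 and 38.2 CPM in hearts 1 to 5). Glial and nerve markers were all under 10 CPM, with the glial factor Sox10 at 1.27 ± 0.202 CPM and Dbh, the enzyme that makes noradrenaline, at 6.07 ± 1.88. Among smooth muscle genes Acta2 measured 389.6, 312, 429, 321 and 439 CPM and the more specific Myh11 45.8, 34.03, 32.5, 33.5 and 33.97 CPM. The lymphatic factor Prox1, which cardiac muscle also expresses, was at 52.9 ± 7.95 CPM and the lymphatic receptor Lyve1, which tissue macrophages also carry, at 16.999, 20.4, 16.7, 10.3 and 23.4 CPM. The 43 cytosolic ribosomal protein genes took 1.08% of reads (1.05% to 1.15%), less than the respiratory complexes III to V.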
